A study of Mus musculus with 2 samples.

Results

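A small set of endocrine cells with transcripts of Fev and Slc18a1 and very high granin levels was described in islets of WT and Npc1-/- mice. The cells were selected on the summed UMIs (counted transcript molecules) of a few genes in single barcodes. A barcode was kept when it held more than 1000 genes and fewer than 50000 UMIs, with mitochondrial genes under 10% and haemoglobin genes at or below 0.1% of its UMIs. A kept barcode was a member when Fev plus Slc18a1 reached 3 UMIs, when Chga plus Chgb made up at least 2% of its UMIs, and when Ins1 plus Ins2, Gcg and Sst each stayed below 10%. By this rule 116 of 8897 kept barcodes were members, out of 16215 deposited barcodes. Because these genes chose the cells, their levels are given as a description only.

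Islets were isolated from 2-week-old female mice, and single cell RNA was sequenced from 1 library per genotype, each a pool of 3 mice. The Npc1-/- animals, labelled Npc1KO, were global knockouts on C57BL/6J and the WT animals carried no mutant allele. The deposited libraries held 8569 barcodes and 114324626 UMIs in WT and 7646 barcodes and 127122035 UMIs in Npc1-/-. With 1 library per genotype there was no replicate check and no test between genotypes was made, so intervals in the text are exact 95% intervals that cover counting error only. The 2 libraries shared 12 cell barcodes, none of them a member.

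Chromogranins A and B are acidic proteins packed into dense-core secretory granules with the peptide hormones, and Slc18a1 encodes VMAT1, the transporter that loads monoamines into such granules. Fev is a transcription factor of serotonin neurons that is also switched on in endocrine progenitors of the developing pancreas, after Neurog3, the factor that commits cells to the endocrine lineage. In the gut, cells that make serotonin, called enterochromaffin cells, carry Fev, Slc18a1, granins, the neuropeptide gene Tac1 and Tph1, the enzyme of the first step of serotonin synthesis. The same few genes can therefore mark a cell on its way to a hormone-producing fate or a cell of enterochromaffin type, and the levels of the other genes of both programmes were compared below.

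The promoters of Fev, Chga and Chgb are shown because these genes chose the cells. Those of Tac1 and Cartpt, which encodes the peptide CART, are shown as the genes furthest above other endocrine cells. That ranking holds among genes outside the rule at 50 CPM or more. Each window is 300 bases long, spans the RefSeq start site on GRCm38.p6 and is written along the gene's own strand. Capitals mark TGACGT or its complement ACGTCA, which are the parts of the cAMP response element TGACGTCA and overlap within it, and the E-box CATCTG or its complement CAGATG. The Fev window holds neither and the Tac1 window only the E-box. In the order printed they lie at chr1:74885359-74885658 (minus strand), chr12:102554691-102554990 (plus strand), chr2:132781392-132781691 (plus strand), chr6:7554811-7555110 (plus strand) and chr13:99900634-99900933 (minus strand).
Fev: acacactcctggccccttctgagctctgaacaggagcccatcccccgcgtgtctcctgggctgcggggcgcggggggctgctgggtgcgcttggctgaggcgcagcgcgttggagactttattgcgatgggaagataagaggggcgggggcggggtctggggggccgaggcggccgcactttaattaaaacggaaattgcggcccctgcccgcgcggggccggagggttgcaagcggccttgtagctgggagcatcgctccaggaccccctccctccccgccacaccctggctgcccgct
Chga: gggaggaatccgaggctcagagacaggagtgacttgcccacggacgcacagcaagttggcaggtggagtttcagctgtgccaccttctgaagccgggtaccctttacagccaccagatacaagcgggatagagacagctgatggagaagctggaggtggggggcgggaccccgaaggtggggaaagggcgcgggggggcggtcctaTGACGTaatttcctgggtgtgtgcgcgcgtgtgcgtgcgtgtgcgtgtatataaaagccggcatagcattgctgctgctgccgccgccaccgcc
Chgb: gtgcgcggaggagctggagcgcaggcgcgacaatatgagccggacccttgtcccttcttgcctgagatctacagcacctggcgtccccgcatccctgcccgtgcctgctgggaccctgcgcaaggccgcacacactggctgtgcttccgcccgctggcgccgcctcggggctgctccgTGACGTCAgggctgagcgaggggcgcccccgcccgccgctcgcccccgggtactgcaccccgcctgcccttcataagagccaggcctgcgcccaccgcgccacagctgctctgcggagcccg
Tac1: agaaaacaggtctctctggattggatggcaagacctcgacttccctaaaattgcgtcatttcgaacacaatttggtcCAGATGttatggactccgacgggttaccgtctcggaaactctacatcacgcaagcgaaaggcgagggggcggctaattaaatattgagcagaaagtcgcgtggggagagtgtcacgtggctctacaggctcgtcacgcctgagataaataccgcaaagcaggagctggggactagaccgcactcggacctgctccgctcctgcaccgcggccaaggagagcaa
Cartpt: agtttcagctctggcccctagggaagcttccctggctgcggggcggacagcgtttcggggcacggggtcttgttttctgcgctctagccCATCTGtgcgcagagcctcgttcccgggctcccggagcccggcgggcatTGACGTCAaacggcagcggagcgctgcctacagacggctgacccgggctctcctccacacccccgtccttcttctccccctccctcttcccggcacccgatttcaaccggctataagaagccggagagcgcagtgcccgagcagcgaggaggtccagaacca
TGACGT or ACGTCA occurred in 7.51% of 32851 RefSeq windows of the same length and the E-box in 17.2%. Among 18 genes, the 8 markers and the 12 genes named below as highest (Tac1 and Cartpt are in both lists), 14 had a window. Of the 21 windows of these genes, 3 held the first and 6 the second. No window was at hand for Slc18a1, Gm45159, Csrp2 and Gria3. A match of letters is a description and not a bound site.

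Npc1 itself, the gene that was knocked out, was counted at 3 UMIs in the WT members and 14 UMIs in the Npc1-/- members. That is 17.5 CPM (3.6 to 51.1), the usual scaling of counts to library size, here to all UMIs summed over the cell class, and 8.05 CPM (4.4 to 13.5). The intervals overlap at this depth. The level of Npc1 in other endocrine cells was 6.99 CPM (WT) and 3.46 CPM (Npc1-/-), and it was lower in Npc1-/- in each named class, for example 5.75 and 2.54 CPM in beta cells and 21.6 and 9.38 CPM in endothelial barcodes. The labels do not say which part of the gene was removed.

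Members made up 13 of 4628 kept WT barcodes, or 0.281% (0.150 to 0.480), and 103 of 4269 kept Npc1-/- barcodes, or 2.41% (1.97 to 2.92). The share in the Npc1-/- library was 8.59 times that in the WT library (4.81 to 16.7). Of endocrine barcodes only, the shares were 0.372% and 3.06%, a ratio of 8.23. Whether this gap is larger than the spread between mice cannot be said, since each genotype was a single pooled library.

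**Figure D1:**
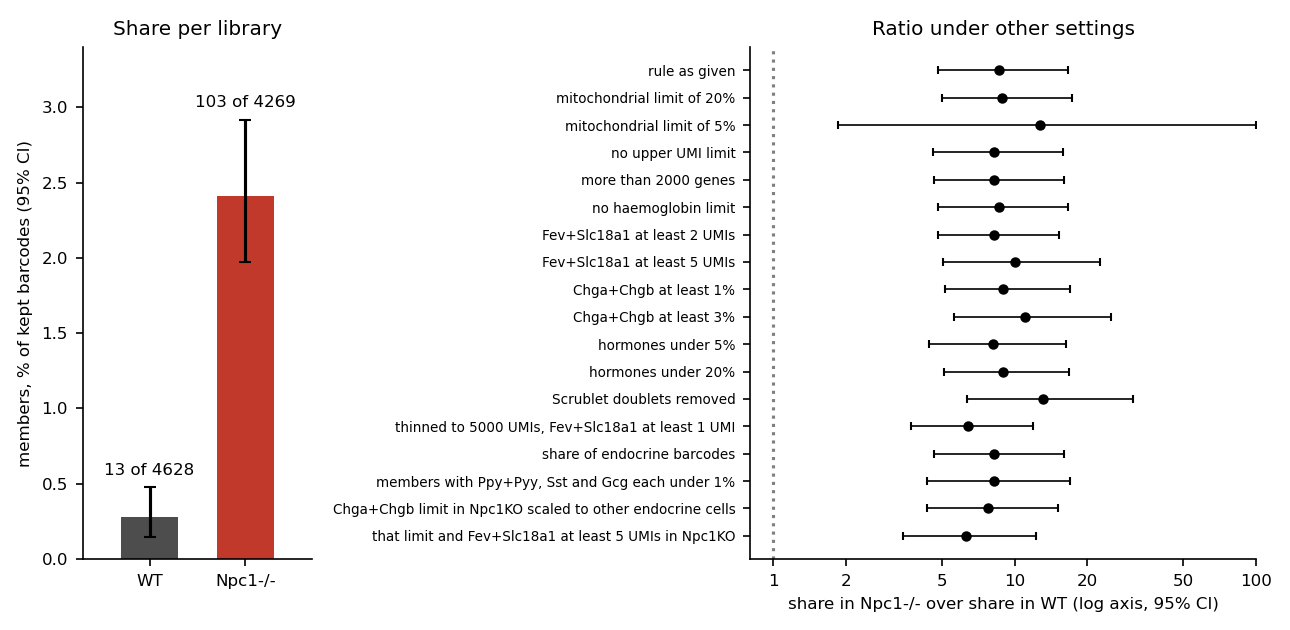
Left, members as a percentage of kept barcodes in each library, with exact binomial 95% intervals; right, the ratio of the Npc1-/- share to the WT share on a log axis, under the rule and 17 other settings, with 95% intervals (the upper limit at the 5% mitochondrial limit, 549, is drawn at 100). The ratio stayed between 6.25 and 13.0 in all of them.

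Granin shares also differed between the libraries outside the members, which bears on a rule with a fixed limit. The median share of Chga plus Chgb in other endocrine cells was 0.459% of UMIs in WT and 0.635% in Npc1-/-. It was higher in Npc1-/- in beta cells (0.508% and 0.779%), alpha cells (0.369% and 0.457%) and PP cells (0.356% and 0.536%), but lower in delta cells (0.579% and 0.537%) and endothelial barcodes (0.0182% and 0.0165%). When the limit in Npc1-/- was raised in proportion to 2.77%, 93 members were left there and the ratio was 7.76. With at least 5 UMIs of Fev plus Slc18a1 required in addition in Npc1-/- it was 6.25 (3.45 to 12.3).

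Doublet scores moved with the WT members. Scrublet, which scores each barcode by its likeness to simulated pairs of cells, gave a median score of 0.150 in the 13 WT members and 0.0405 in the 103 Npc1-/- members, against 0.0443 and 0.0455 over all kept barcodes. Removal took the highest scores up to an assumed doublet rate, 317 WT and 261 Npc1-/- barcodes. Scrublet's own threshold marked only 65 and 40. The removal took out 5 WT and 6 Npc1-/- members, which left 8 and 97 and a ratio of 13.0. Members also had more mitochondrial transcripts, with medians of 6.72% in WT and 6.55% in Npc1-/- beside 4.14% and 4.34% in other endocrine cells. Below a mitochondrial limit of 5% only 1 WT and 11 Npc1-/- members remained. The part of doublets and of mitochondrial content in the result was not tested further.

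Part of the members lay near the limits. In WT, 97 kept barcodes passed the Fev and Slc18a1 limit and 25 the granin limit, with 15 passing both, and 2 of these were set aside for their hormone content. In Npc1-/- the numbers were 286, 172 and 134, with 31 set aside. Just inside the limits, 0 WT and 12 Npc1-/- members had exactly 3 UMIs of Fev plus Slc18a1, and 4 WT and 11 Npc1-/- members had a granin share of 2% to 3%. Just outside, 2 WT and 11 Npc1-/- barcodes failed only by having 2 UMIs, and 1 WT and 13 Npc1-/- barcodes only by a granin share of 1% to 2%. A further 1 WT and 12 Npc1-/- barcodes failed only by a hormone share of 10% to 20%.

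The genes of the rule had these levels. Fev (chr1:74881509-74885419, minus strand) reached 367 CPM in the WT members and 326 CPM in the Npc1-/- members, and 13.4 and 16.9 CPM in other endocrine cells. Fev also had a UMI in 91 of 277 WT delta cells, 50 of 1782 WT beta cells and 191 of 1794 Npc1-/- beta cells. Slc18a1 (chr8:69037711-69089235, minus strand) reached 186 and 197 CPM in members. It also had a UMI in 229 of the WT and 394 of the Npc1-/- beta cells, and in 5 of the WT delta cells. Per member, Slc18a1 ran from 1 to 5 UMIs with a median of 2 in WT, and from 0 to 13 with a median of 3 in Npc1-/-. Chga (chr12:102554969-102565028, plus strand) stood at 21524 and 29139 CPM in members and Chgb (chr2:132781278-132795079, plus strand) at 30657 and 35452 CPM. In endothelial barcodes, which should hold only free RNA of these genes, Chgb was at 67.5 and 24.1 CPM. All coordinates are GRCm38 with GENCODE vM21 gene bounds.

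The other 4 markers given for these cells did not behave alike. Sox4 (chr13:28948919-28953713, minus strand), a transcription factor of progenitors in many tissues, had a UMI in 13 of 13 WT members and in 99 of 103 Npc1-/- members, at 600 and 476 CPM, with 67.7 and 85.6 CPM in other endocrine cells. It was not limited to them, since endothelial barcodes held 450 and 402 CPM. Neurog3 (chr10:62133090-62134763, plus strand) was at 69.9 and 61 CPM in members, close to the 76.7 and 80.6 CPM of delta cells and well above the 2.45 and 3.96 CPM of beta cells. Tac1 (chr6:7554879-7565834, plus strand), which encodes substance P, was at 169 and 50.6 CPM, and Cartpt (chr13:99898489-99901091, minus strand) at 99 and 62.1 CPM. Both were below 5 CPM in all other classes.

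Tac1, Cartpt and Neurog3 each had UMIs in a minority of members. Of the 13 WT members 3 held a Neurog3 UMI, 3 a Tac1 UMI and 3 a Cartpt UMI, with no member in common. Of the 103 Npc1-/- members 40 held Neurog3, 28 Tac1 and 37 Cartpt, of which 10 held Neurog3 with Tac1, 11 Neurog3 with Cartpt and 7 Tac1 with Cartpt. Neurog3 was thus in 35.7% of the Tac1 members and 29.7% of the Cartpt members, beside 38.8% of all, and Tac1 in 18.9% of the Cartpt members, beside 27.2% of all. All 3 genes met in 1 member and 25 Npc1-/- members had none of them. Their sums rested on a few cells in WT: a single member carried 19 of the 29 Tac1 UMIs and a single member 14 of the 17 Cartpt UMIs.

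Depth limits these shares, so each cell was also thinned to 5000 UMIs. Neurog3 was then seen in 20.4% of Npc1-/- members (13.1 to 29.5; 38.8% unthinned), in 15.4% of WT members (1.92 to 45.4; 23.1% unthinned) and in 33% and 30.2% of WT and Npc1-/- delta cells. Tac1 was seen in 21.4% (27.2% unthinned) and Cartpt in 18.4% (35.9% unthinned) of thinned Npc1-/- members. In WT members both stood at 23.1% unthinned, and thinned Tac1 was at 15.4% and Cartpt at 7.69%. Of endothelial barcodes, drawn at random and thinned to the same depth, 1 of 273 in WT and 0 of 276 in Npc1-/- held Neurog3, and none held Tac1 or Cartpt, which allows up to 1.1% and 1.09% (3 counts of the total) or 1.34% and 1.33% by the exact interval. Median depth before thinning was 13067 and 14911 UMIs in members and 7863 and 10289 in endothelial barcodes.

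The enterochromaffin programme was present only in part. Tph1 had 0 UMIs in WT members, which allows up to 17.5 CPM, and 3 UMIs in 2 Npc1-/- members, or 1.73 CPM. Lmx1a, a transcription factor of enterochromaffin cells, and Reg4 had no UMI in any member. The enzymes that follow or supply Tph1 were there: Ddc, which decarboxylates 5-hydroxytryptophan and L-DOPA, was at 367 and 288 CPM, and Gch1, which starts the synthesis of the cofactor BH4, at 262 and 286 CPM. Both genes were also found in beta cells (Ddc 170 and 147 CPM) and delta cells (Gch1 242 and 215 CPM). Slc38a11, an amino acid transporter known from enterochromaffin cells, was at 17.5 and 23 CPM beside 0.511 and 0.869 CPM in other endocrine cells, on 3 and 40 UMIs.

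Members were compared with all other endocrine cells of their own library, that is kept barcodes in which Ins1 plus Ins2, Gcg, Sst or Ppy plus Pyy reached 10% of UMIs (3480 in WT, 3258 in Npc1-/-). The question was which other genes set the members apart. The median gene was higher in members by 0.91 in WT and 0.76 in Npc1-/- on the log2 scale, and log2 ratios are therefore given relative to that gene. Of 5919 genes tested, 50 (0.845%) were at least 4-fold higher in both libraries and 52 (0.879%) at least 4-fold lower. Without the centring the split was 128 higher and 27 lower.

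By list, the enterochromaffin genes counted 15, of which 9 were tested and 4 were 4-fold higher, beside 0.845% of all genes tested. Of those 4 only Tac1 lay outside the rule, the rest being Fev, Slc18a1 and Chgb. The limit of 20 CPM decided which genes were tested, and Slc38a11, at 17.5 CPM in WT, fell just short of it, with log2 ratios of 4.39 and 3.97. Adra2a, an adrenergic receptor gene of these gut cells, stood at -1.89 and -4.09, on 2 UMIs in WT and 4 in Npc1-/- members. Its levels in members were below the 41.8 and 37.6 CPM of beta cells but not below the 1.81 and 2.07 CPM of alpha cells. Of 13 genes for monoamine synthesis, transport and breakdown 6 were tested and only Slc18a1 was called. Tph2, Dbh and the serotonin transporter gene Slc6a4 had no UMI in members. Slc18a2, the second vesicular monoamine transporter gene, had 2 UMIs. Among genes that mark gut regions, Cdx1, Cdx2, Fabp1, Fabp2 and Muc2 had 0 UMIs in the members of either library. Vil1, a microvillus gene, was at 35.0 and 28.8 CPM, and at 20.8 and 19.8 CPM in beta cells.

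Of 19 endocrine progenitor genes 11 were tested and none outside the rule was 4-fold higher in both libraries. With 0.845% of all genes tested 4-fold higher, that count is too small to read. The median of the 10 tested outside the rule was 0.27 in WT and 0.28 in Npc1-/-, against 0.09 and 0.07 for all genes. The highest of them were Neurog3 (2.47 in WT and 1.92 in Npc1-/-), Sox4 (2.25 and 1.71) and Cldn4, a tight junction gene (2.07 and 1.64), each past 4-fold in WT alone. Gadd45a followed with 1.40 and 1.60. Other genes of the early programme were missing: Pax4 and Neurod2 had no UMI in members, and Dll1 and Cck had at most 1 UMI in either library. Sox9, of multipotent progenitors and ducts, had 0 and 11 UMIs.

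**Figure D2:**
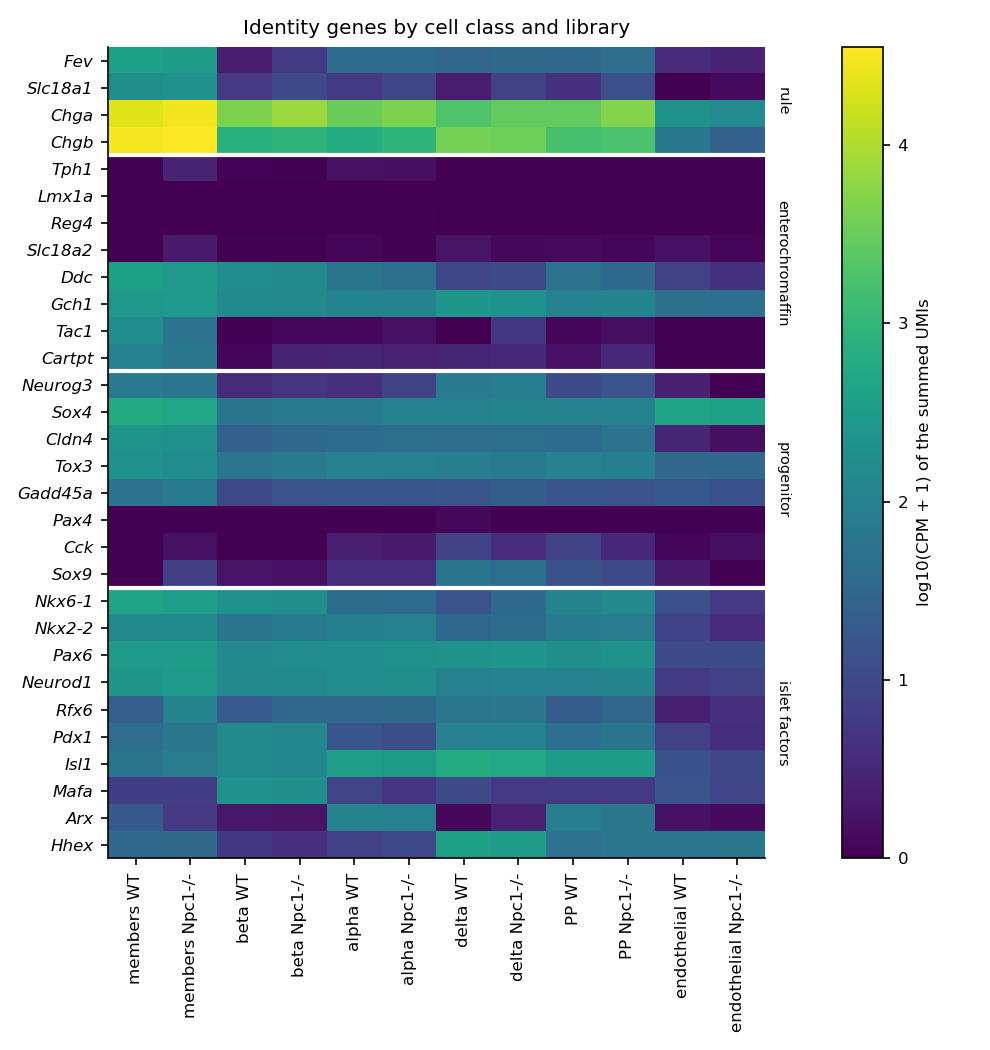
Colour gives log10(CPM + 1) of the UMIs summed over each cell class (columns, by library) for genes of the rule, of enterochromaffin cells, of endocrine progenitors and for islet transcription factors (rows). Members shared Ddc, Gch1, Neurog3 and Sox4 with other classes, while Tph1, Lmx1a, Reg4 and Pax4 were near 0 in all of them.

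Summed over the cell cycle genes, CPM in members was below the pooled endocrine level. It was nearer to delta and beta cells than to alpha and PP cells. Of 9 such genes 6 were tested against other endocrine cells. Relative to the median gene their medians were -1.42 and -2.49. Of them 2 were 4-fold lower, Mki67 and Ube2c, beside 0.879% of all genes tested. Mki67 had 0 UMIs in WT members and 13 UMIs in 4 Npc1-/- members, or 7.48 CPM beside 31.2 CPM in other endocrine cells. Without that centring, the 9 genes summed to 117 and 104 CPM in members, beside 215 and 209 CPM in other endocrine cells. By class the sums were 106 and 125 CPM in delta cells and 158 and 124 CPM in beta cells. They were 365 and 453 CPM in alpha cells and 323 and 215 CPM in PP cells. Mki67, Irx1 and the channel gene Kcnj11 had 0 UMIs in WT members, and with 3 UMIs in place of 0 their WT ratios were -1.72, -1.94 and -1.38, short of 4-fold.

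Islet transcription factors were mostly at the level of other endocrine cells. Of 21 islet transcription factors 19 were tested and none was 4-fold higher. Of the 19, 3 (beside 0.879% of all genes tested) were 4-fold lower: Mafa, Isl1 and Irx1. The median log2 ratio of the 19 was -0.32 in WT and -0.05 in Npc1-/-. Irx1 had no UMI in WT members, and at a level of 3 UMIs it fell short of 4-fold there. Nkx6-1, a beta cell factor, stood at 460 and 355 CPM in members and at 215 and 186 CPM in beta cells. These CPM are not centred, and Ins1 plus Ins2 took a median of 53.4% and 51.2% of beta cell UMIs. The levels in members and beta cells are therefore not directly comparable. Relative to the median gene Nkx6-1 was at 0.64 and 0.55 over all other endocrine cells. Pax6 (320 and 331 CPM), Neurod1 (256 and 292 CPM) and Nkx2-2 (140 and 149 CPM) were all present and lay within 0.25 of the median gene. Pdx1, needed for beta cell function, was at 40.8 and 62.7 CPM beside 142 and 133 CPM in beta cells. Mafa, a factor of mature beta cells, had 1 UMI in WT and 10 UMIs in Npc1-/- members.

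Genes outside the rule, at 50 CPM or more in the higher class of both libraries, were ranked by the less extreme library. The highest in members were Tac1 (log2 9.82 in WT and 5.74 in Npc1-/-) and Cartpt (6.22 and 4.27). They were followed by the transcript Gm45159 (4.76 and 4.15), Ppp1r14c, a phosphatase inhibitor gene (4.15 and 3.53), Palld, of the actin cytoskeleton (4.13 and 3.26), and Csrp2, a LIM domain gene (3.57 and 3.18). Csrp2 was the one seen most widely, in 12 of 13 WT and 91 of 103 Npc1-/- members, at 233 and 191 CPM against 10.6 and 12.4 CPM in other endocrine cells. It was at 145 and 132 CPM in endothelial barcodes too. Lower levels of these genes were also found in single endocrine classes. Ppp1r14c was at 105 and 88.0 CPM in members and at 38.0 and 40.2 CPM in delta cells, Gm45159 at 93.2 and 61.5 CPM in members and at 12.4 and 11.4 CPM in PP cells, and Csrp2 at 31.0 and 30.0 CPM in PP cells. Vim, the intermediate filament gene of mesenchymal cells, stood at 3.49 and 2.80 and was held by 6 WT and 50 Npc1-/- members. Pde1a, Rab3c (a small GTPase gene of secretory vesicles), Gria3 (an AMPA receptor subunit gene), Pik3c2g and Pcyt1b completed the 12, with log2 ratios between 2.34 and 3.54. Gria3 was in 10 of 13 WT and 89 of 103 Npc1-/- members, and in 36.8% and 40.0% of PP cells.

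Ranked within the same limits, the genes furthest below included Mafa, G6pc2 and Slc2a2 of mature beta cells and the ghrelin gene Ghrl. Tmem215 had 0 and 3 UMIs in members, beside 93.6 and 66.1 CPM in other endocrine cells. With a level of 3 UMIs in place of 0, its WT ratio was -3.33, an upper bound, and its Npc1-/- ratio was -5.80. Mafa followed at -4.82 and -5.11. G6pc2, a glucose-6-phosphatase gene of beta cells, stood at -4.08 and -3.99. Slc2a2, the GLUT2 glucose transporter gene, was at -5.25 and -3.25, with 1 UMI in WT members. Msln, Prss53, Tmsb15b2, Higd1a, Ero1lb, Ghrl, AC078895.1 and Ffar1 made up the rest. Of 14 beta cell genes 13 were tested and 7 were 4-fold lower, beside 0.879% of all genes tested. Of these 7, 5 lay outside the rule. The median of the tested genes outside the rule was -3.24 in WT and -2.08 in Npc1-/-. Of 10 alpha cell genes 9 were tested and 4 were 4-fold lower, beside the same 0.879%: Gcg, which the rule used, Slc38a5, Irx1 and Ttr. With 3 UMIs in place of 0 in WT members, Irx1 fell short of 4-fold there. Beta cells, which the insulin limit kept out of the members, held 53583709 of the 84131313 UMIs of other endocrine cells in WT. In Npc1-/- they held 53228247 of 82898352. Against alpha or PP cells alone several of the genes named in this paragraph were not lower, and the cause was not tested.

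**Figure D3:**
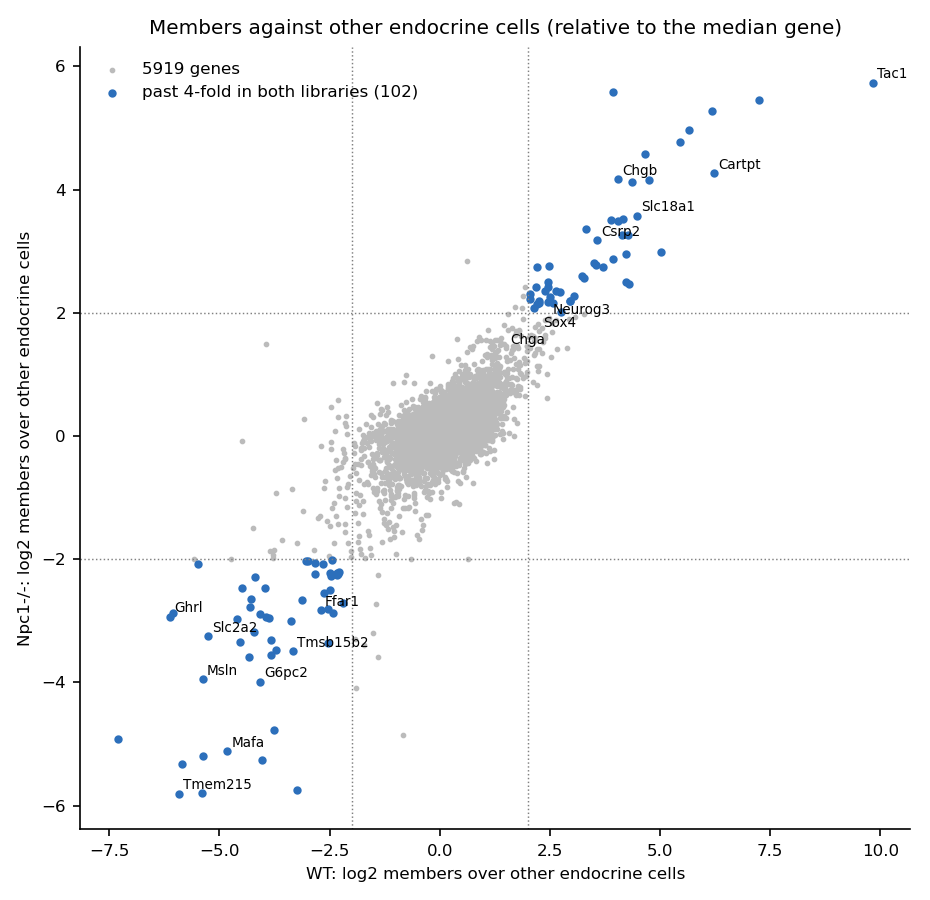
Each point is 1 of 5919 genes: log2 ratio of members over other endocrine cells in WT (x axis) and Npc1-/- (y axis), relative to the median gene; the 102 genes past 4-fold in both libraries are blue and dotted lines mark 4-fold. Tac1 and Cartpt lie at the upper right with the granin gene Chgb, and Mafa, G6pc2 and Tmem215 at the lower left.

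Secretory genes were largely at the level of other endocrine cells. All 11 granin and prohormone-processing genes were tested and, outside Chga and Chgb, none passed 4-fold in both libraries, with medians of -0.24 and -0.14. Pcsk1n, the proSAAS gene, was at 8872 and 7790 CPM, and the proconvertase gene Pcsk2 at 1054 and 1779 CPM. Scg2, a further granin gene, went the other way from Chga and Chgb, at 746 and 655 CPM beside 1613 and 1504 CPM in other endocrine cells, a log2 ratio of -2.02 and -1.96. All 20 exocytosis genes were tested, with medians of -0.05 and 0.21. Rab3c was 4-fold higher and Sytl4, a granule protein gene of beta cells, 4-fold lower, beside 0.845% and 0.879% of all genes tested. Of 15 genes for excitability and glucose sensing 12 were tested, with medians of -0.69 and -0.01. Of these 4 were 4-fold lower: Slc2a2, Trpm5 and the KATP channel genes Kcnj11 and Abcc8. Kcnj11 had no UMI in WT members, and at a level of 3 UMIs it fell short of 4-fold there. Abcc8 was held by 4 of 13 WT and 38 of 103 Npc1-/- members. Cacna2d1, a calcium channel subunit gene, was at 268 and 375 CPM with a log2 ratio of 1.19 and 1.42.

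Markers of other cell types were checked for admixture. The 6 endothelial genes had no UMI in WT members and summed to 8.63 CPM in Npc1-/- members. The 11 acinar genes summed to 69.9 and 81.7 CPM beside 123 and 45.9 CPM in other endocrine cells, with Ctrb1 the most abundant in Npc1-/- at 25.9 CPM. The 7 stellate and mesenchymal genes had no UMI in WT and summed to 96 CPM in Npc1-/-, of which Rgs5 made 68.4 CPM. Of the macrophage genes, C1qb, C1qc, Cd68 and Adgre1 had no UMI in Npc1-/- members and C1qa was at 112 CPM. The 9 duct genes summed to 1270 and 1128 CPM, beside 530 and 517 CPM in other endocrine cells. These were mostly keratins, with Cftr at 0. The 7 lymphocyte genes summed to 0 and 11.5 CPM, and the 11 neural and Schwann cell genes to 134 and 125 CPM beside 63.5 and 65.7 CPM in other endocrine cells, with Sox10, S100b and Prph at 0. The part of such cells in the results was not tested.

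Ppy plus Pyy and Sst transcripts divided the members into sets with a gap between them. In 94 of 116 members Ppy plus Pyy, Sst and Gcg each stayed below 1% of UMIs, and Ppy plus Pyy had a median of 0.0882%, near the 0.0726% and 0.0818% of endothelial barcodes. The other 22 members (2 WT and 20 Npc1-/-) all held Ppy plus Pyy, at 2.21% or more, while no other member exceeded 0.923%. Of these, 9 (1 WT and 8 Npc1-/-) held Ppy plus Pyy at 10% or more and so also met the limits that named PP cells. They were counted as members only, since the rule set no limit on Ppy and Pyy. In 12 of the 22 Ppy plus Pyy came without Sst, at a median of 19.9%. In the other 10 they came with Sst, which ran from 3.9% to 9.3%. The sets were defined after the values were seen and hold 1 WT member each beside the 11 WT members without these hormones. Insulin did not define them: Ins1 plus Ins2 reached 1% of UMIs in 61 of the 116 members, 2% in 19 and 5% in 4.

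The hormone-bearing members had lower granin shares. The median of Chga plus Chgb was 7.23% in the 94, 3.27% in the 12 and 3.43% in the 10. The 10 with Sst also held the delta cell genes: Hhex, the delta cell factor, had a UMI in 10 of 10 at 191 CPM, and Rbp4 was at 3067 CPM in them. Among the 94, Hhex was in 11 at 8.25 CPM. Isl1, a factor of all islet endocrine types, was at 285 CPM in the 10, at 215 CPM in the 12 and at 7.5 CPM in the 94, where 8 members held it. Neurog3 was in 36 of the 94, 2 of the 12 and 5 of the 10. Median depth was 29922 UMIs in the 10, beside 13702 in the 94 and 14488 and 16196 in WT and Npc1-/- delta cells. The removal by Scrublet score at the assumed doublet rate took 7, 3 and 1 members of the 94, 12 and 10. Whether the hormone-bearing members are single cells or pairs was not tested. Without all 22 the share in Npc1-/- was 8.18 times that in WT.

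**Figure D4:**
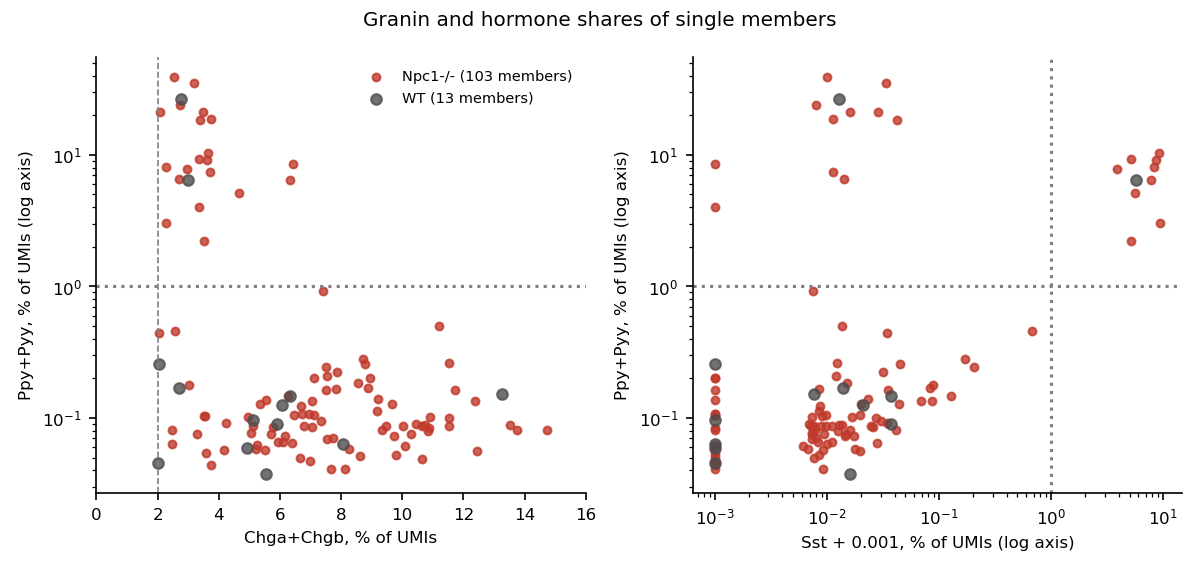
Single members of WT (grey) and Npc1-/- (red): the share of Ppy plus Pyy in UMIs (log axis) against the share of Chga plus Chgb (left; dashed line, the 2% limit) and of Sst (right; log axis, 0.001 added). Dotted lines mark 1%; 94 members lie below them and 22 above, 10 of these with Sst.

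Insulin transcripts were low in members. Ins1 plus Ins2 had a median of 1.34% of UMIs in WT and 0.998% in Npc1-/- members, against 1.94% and 0.935% in endothelial barcodes, the level of free RNA. The highest member reached 2.63% in WT and 9.08% in Npc1-/-. Iapp, the amyloid peptide gene that the rule did not use, had a median of 0.375% in WT and 1.06% in Npc1-/- members.

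The last comparison asked how Npc1-/- members differed from WT members. It rests on 171672 UMIs from 13 WT cells and 1738735 UMIs from 103 Npc1-/- cells. Relative to the median gene, the intervals of Neurog3, Sox4 and Cartpt included 0, at log2 ratios of -0.14, -0.23 and -0.60. As a description only, since they chose the cells, Fev was at -0.08, Slc18a1 at 0.17, Chga at 0.54 and Chgb at 0.32. The depth allows differences in either direction, as the interval of Neurog3 ran from -0.95 to 0.91. Of 3893 genes tested, 174 (4.47%) were at least 2-fold higher and 111 (2.85%) at least 2-fold lower in Npc1-/-, and the counting interval left out 0 in 135 and 90 of them. Without the centring, 130 were higher and 154 lower. The number past 2-fold rose without Scrublet doublets, which took out 5 of the 13 WT members. It also rose without the hormone-bearing members, with both values given under the processing.

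Immediate-early and heat-shock genes were lower in Npc1-/- members. Of 10 such genes 9 were tested and 6 were 2-fold lower, beside 2.85% of all genes tested: Hspa1a, Junb, Fos, Fosb, Dnajb1 and Jun. Hspa1a, an inducible chaperone gene, was at 798 CPM in WT members and 196 CPM in those of Npc1-/- (log2 ratio -1.93, -2.21 to -1.63), and Fos at 1049 and 388 CPM (-1.33, -1.57 to -1.08). The median of the 9 was -1.19, beside 0.02 over all genes tested. Lower levels were also found outside the members, where the same 9 had a median of -1.31 in other endocrine cells, and the summed level of the 10 in Npc1-/- was 0.396 of that in WT in members, 0.432 in other endocrine cells and 0.773 in endothelial barcodes. Dusp1, a phosphatase gene of the same early response, was at -1.87 in members. Whether the handling of the 2 libraries had a part in this was not tested.

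Several genes were lower in members with little difference elsewhere. Ctxn2 (-1.62), Rgs17, a regulator of G protein signalling (-1.33), Mir670hg (-1.30) and Ssbp2 (-1.21) were at -0.26, -0.14, 0.21 and -0.10 in other endocrine cells, a contrast that was not tested. Rhob, a small GTPase gene, was at -1.36 and -0.68. Tac1 was at -1.65 (-2.25 to -0.97), a value that rests on the single WT member with 19 UMIs. Gast, the gastrin gene, was at 111 and 19 CPM, but all 19 UMIs of WT came from 1 member, whereas 15 Npc1-/- members held it.

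Higher in Npc1-/- members were Cldn5, Rfx6 and Iapp among others. Cldn5, a tight junction gene best known from endothelium, was at 23.3 and 224 CPM (log2 ratio 3.20, 2 to 5.25) and was held by 3 of 13 WT and 68 of 103 Npc1-/- members. Endothelial genes were at or near 0 in the same cells, and Cldn5 was also 4-fold above other endocrine cells in both libraries (3.94 and 5.59). Its ratio between genotypes was 1.57 in other endocrine cells. Rfx6, an islet transcription factor, was in 4 of 13 and 83 of 103 members at 23.3 and 108 CPM (2.16, 0.94 to 4.21), with a ratio of 0.47 in other endocrine cells. Iapp was at 6343 and 16569 CPM (1.49, 1.40 to 1.58), and its ratio was 0.01 in other endocrine cells. Igf1r (2.10), Mt1, a metallothionein gene (1.86), Rnase4 (1.63), Hyou1, a chaperone gene of the endoplasmic reticulum (1.53), and Klf9 (1.49) followed. Mgp, a matrix protein gene of stromal cells, had 0 UMIs in WT and 237 in Npc1-/-, at least 8.40-fold higher against a level of 3 UMIs, but a single member held 125 of the 237.

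**Figure D5:**
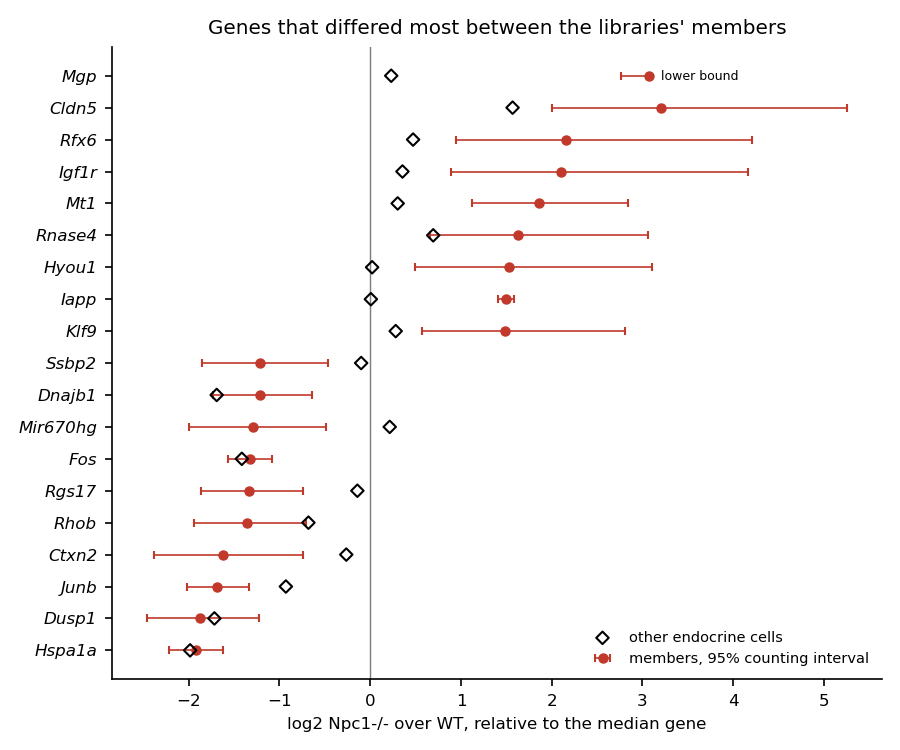
Log2 ratio of Npc1-/- over WT members relative to the median gene for 9 of the 10 highest and the 10 lowest genes, with 95% counting intervals (red), beside the same ratio in other endocrine cells (open diamonds); Mgp is a lower bound. Fos, Dusp1, Dnajb1 and Hspa1a have like values in both, while Iapp lies near 0 in other endocrine cells.

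No lysosome or cholesterol gene tested passed the 2-fold limit between genotypes in members. Of 16 such genes 11 were tested, a count too small to read against the 4.47% and 2.85% called higher and lower over all genes tested. Their median log2 ratio was 0.25 in members and 0.23 in other endocrine cells, beside 0.02 and 0.04 over all genes tested. Soat1, which esterifies cholesterol, was at 75.7 and 123 CPM in members beside 12.5 and 26.1 CPM in other endocrine cells, a log2 ratio of 1.75 and 1.47 relative to the median gene, short of 4-fold.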

How the data were processed

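The labels describe pancreatic islet single cells captured with a 10x Genomics 3' kit, 1 library per genotype. According to the submitters' processing notes, the authors used Cell Ranger 3.1.0 and Seurat 4.0.3 with mm10. The deposited values are raw UMI counts per gene and barcode from the filtered matrices, for 31053 genes. Barcodes outside the limits used here were still among them, and doublets were not removed for the main results.

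UMIs were summed per class and library and scaled to the class total (CPM). Log2 ratios, with 0.5 added to each count, were set relative to the median gene among those with a mean of 100 CPM or more over both classes compared. Genes at 20 CPM or more in either class, in both libraries, entered the comparison with other endocrine cells, and genes at 50 CPM or more in either genotype that between genotypes. Beta, alpha, delta and PP cells were named by a hormone at 10% of UMIs or more (beta, 20%), and endothelial barcodes by 10 UMIs of endothelial genes. Members were left out of these classes. Intervals are exact Poisson, Clopper-Pearson or conditional binomial at 95%. Named, beside the markers and listed genes, were the 12 highest and 12 lowest by the less extreme library, at 50 CPM or more in the higher class of both libraries, and the 10 highest and 10 lowest between genotypes at 100 CPM or more in either, with an interval that leaves out 0 and a UMI in at least 5 members of the higher library. Of these, 1 gene between genotypes is not reported here. The genes given by hormone content were chosen after their values were seen. The members and the gene lists were chosen with earlier results of these data known. The ratios were tested on simulated data. Python 3.11.15, scanpy 1.11.5, Scrublet, R 4.3.3 and edgeR 4.0.16 (TMM factors only, as an alternative) were used.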

Additional observations from a re-analysis of the deposited data

Results flagged for a closer look

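In the Npc1-/- library 3 further barcodes met the gene criteria of the Fev and Slc18a1 granin-rich cells but held mitochondrial genes at 10% of UMIs or more, and 0 such barcodes were found in WT. They drew attention because they lie outside the barcodes used in every comparison and none were present in the control library. With a mitochondrial limit of 20% the share in Npc1-/- was 8.89 times that in WT.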

How the results depend on the processing

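The share of members was higher in Npc1-/- than in WT under all 17 other settings, with a ratio between 6.25 and 13.0. The 102 genes past 4-fold against other endocrine cells became 155 without the centring, 243 with genes from 5 CPM, 2446 with no lower limit, 169 against alpha cells alone and 42 at a mitochondrial limit of 5%. The 285 genes past 2-fold between genotypes became 17 with genes from 200 CPM, 4411 with no lower limit, 498 without Scrublet doublets and 452 without members at 1% or more of Ppy plus Pyy, Sst or Gcg. Without thinning, the share of Npc1-/- members with a UMI was 35.9% for Cartpt and 38.8% for Neurog3, and Tac1 was at 12.6% when thinned to 2500 UMIs. Against single classes some of the lowest genes turned direction. Against beta cells, Higd1a was at 0.31 in WT and 0.54 in Npc1-/- and Ghrl at 0.88 in Npc1-/-. Against alpha cells, Mafa was at 0.058, Msln at 1.90, Slc2a2 at 1.77 and AC078895.1 at 2.75 in Npc1-/-, and Prss53 at 1.12 in WT and 1.53 in Npc1-/-. Against PP cells, Mafa was at 0.075, Prss53 at 0.77 and G6pc2 at 0.34 in WT, and Msln at 2.36, Prss53 at 0.66, Slc2a2 at 1.33 and AC078895.1 at 0.45 in Npc1-/-. The cause was not tested. The settings without hormone-bearing members and with a scaled granin limit were chosen after seeing the data. No paired analysis was possible because each genotype was 1 library, and no replicate could be left out. With 13 WT members, 3 UMIs correspond to 17.5 CPM, which limits every statement on low genes in WT.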

Other observations

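Peptide genes of the gut and brain were unevenly present in the members, with 15 of 22 at 0 UMIs in the 13 WT members and 9 of 22 at 0 in the 103 Npc1-/- members. The sums held 171672 UMIs in WT and 1738735 in Npc1-/-, so these counts cannot be compared between libraries. Of these genes 6 were tested against other endocrine cells, 2 were 4-fold higher (Tac1 and Cartpt) and 1 was 4-fold lower (Ghrl), where 0.845% and 0.879% of all genes tested were. Nts, Insl5, Gal, Npy, Vip and Adcyap1 had no UMI in any member.

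Of 12 stress genes, mainly of the unfolded protein response, 10 were tested against other endocrine cells with none past 4-fold, a count too small to read against the shares above. Their medians were -0.21 in WT and -0.19 in Npc1-/-, beside 0.09 and 0.07 over all genes tested. Hspa5, the BiP chaperone gene, stood at 816 CPM in the WT and 831 CPM in the Npc1-/- members. Of 10 apoptosis genes 6 were tested with none past 4-fold, again too small a count to read, at medians of 0.18 and 0.38.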
